A study of Sus scrofa with 25 samples.

Results

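Interferon-stimulated genes were followed in muscle of 25 pigs on 3 diets. The genes were chosen by symbol, as rows whose Ensembl pig identifier carries the name ISG15, IFIT1, IFIT2, IFIT3, MX1, MX2, OAS1, RSAD2 or IFI6. Of these 9 genes 7 had their identifier in the count files, among 25879 genes analysed. The identifiers of IFIT3 and OAS1 were in none of the files used here, and both genes have no value.

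Interferons are secreted proteins that cells release when they sense viral nucleic acid. They bind receptors on the same and neighbouring cells, and the receptor kinases JAK1 and TYK2 activate transcription factors, STAT2 and its partner IRF9 among them, that switch on a set of antiviral genes. A low level of these genes is kept in most tissues without infection, and the genes are widely read as a sign of interferon exposure. Of the genes measured, ISG15 encodes a ubiquitin-like protein that is attached to other proteins, IFIT1 and IFIT2 encode proteins that bind RNA and restrain translation, and MX1 and MX2 encode dynamin-like GTPases that block viral replication. RSAD2 encodes viperin, an enzyme that makes a chain-terminating nucleotide, and IFI6 encodes a small membrane protein that limits cell death and viral replication.

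Each library came from 1 pig, a cross of a Polish Large White sow with a Landrace boar. From day 85 of life, for 90 days, their feed held vitamin D3 at 0 IU/kg (control, 8 pigs), 5000 IU/kg (D5000, 8 pigs) or 10000 IU/kg (D10000, 9 pigs), and was otherwise equal in protein and energy. Litter mates were spread over the diets, but the labels do not give the litter, the sex or the muscle. The replicate number is the animal number in the sample title, so replicates are separate pigs. The libraries read the 3' end of mRNA, so counts per 1000000 gene counts (CPM) do not scale with transcript length and levels of different genes can be set side by side, apart from differences in how well a 3' end is annotated.

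Gene counts per library ran from 3310507 to 15177976, and 24.9% to 70.6% of the reads in a file were assigned to genes. Skeletal muscle fibre markers, 10 of 14 of which were measured, summed to 12990 to 254540 CPM, so the tissue label held in general. The lowest sum was in D10000 replicate 27, which had the highest sum of adipocyte markers (28387 CPM, against a median of 419.1 CPM). Transcripts typical of liver summed to 3533 to 40042 CPM. The share of assigned reads was under 45% in D5000 replicates 11 and 18 and in D10000 replicates 2 and 7, and in no control. Values without these 4 libraries and D10000 replicate 27 are given below as values without the 5 libraries. In bulk tissue, fewer cells of a type and less RNA per cell cannot be told apart.

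The 7 genes were detected at very different levels. IFI6 (ENSSSCG00000034570) had the highest median over the 25 libraries, 250.5 CPM, and 96.7% of tested genes had a lower average level. It was above IFIT1, the next in order, in 25 of 25 libraries and by at least 5.74 times in each. IFIT1 (ENSSSCG00000010452, median 16.7 CPM), RSAD2 (ENSSSCG00000008648, 15.5 CPM) and MX2 (ENSSSCG00000012076, 14.7 CPM) were close neighbours. IFIT1 exceeded RSAD2 in 14 of 25 libraries and RSAD2 exceeded MX2 in 12 of 25, so these 3 did not differ beyond their spread. MX1 (ENSSSCG00000012077) followed at 9.48 CPM and was below MX2 in 19 of 25 libraries. IFIT2 (ENSSSCG00000010451) had 5.34 CPM and ISG15 (ENSSSCG00000040575) 4.16 CPM, with IFIT2 the higher in 17 of 25. IFIT1 with IFIT2, and MX1 with MX2, are related genes, and reads shared by relatives could be split between them or lost by the authors' counting.

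**Figure D1:**
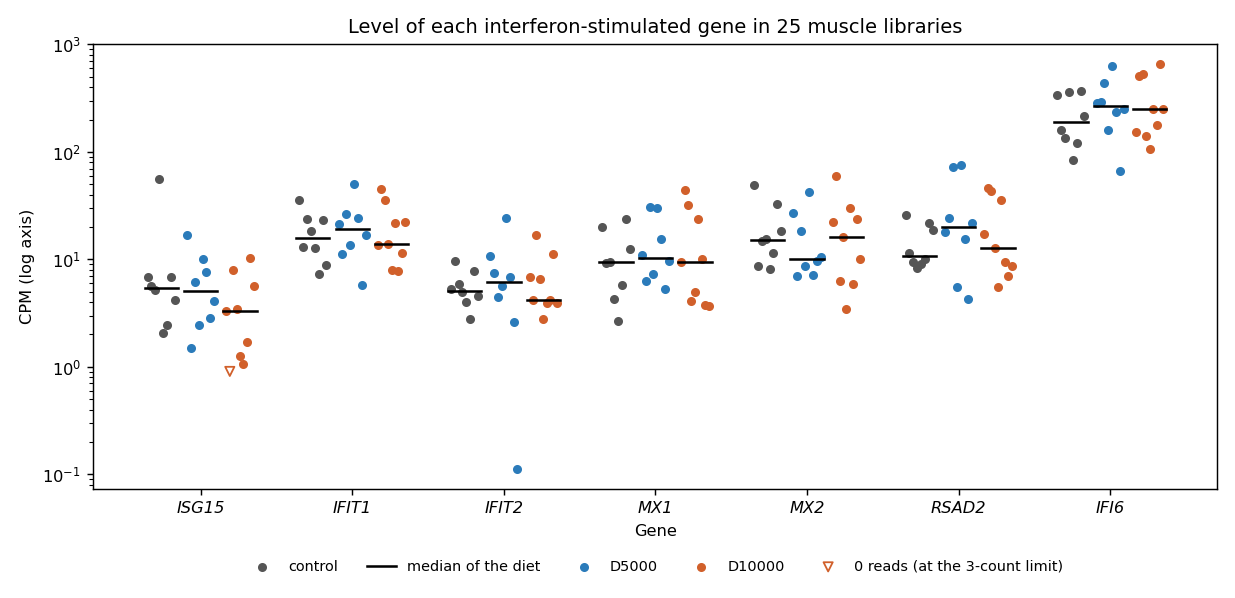
CPM of each of the 7 genes (log axis) in every library, by diet, with a bar at the median of the diet. The diets overlap for each gene, IFI6 stands above the other 6, and ISG15 in control replicate 14 (56.4 CPM) and IFIT2 in D5000 replicate 29 (0.113 CPM) lie far from the rest of their diets. The open triangle is ISG15 in D10000 replicate 2, which had 0 reads and is drawn at the 3-count limit.

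ISG15 ranged in the control from 2.05 CPM in replicate 16 through a median of 5.47 to 56.4 CPM in replicate 14. In D5000 it ranged from 1.50 CPM in replicate 6 through a median of 5.10 to 16.9 CPM in replicate 5. In D10000 it ranged from 0 in replicate 2 through a median of 3.32 to 10.2 CPM in replicate 27. The 3 diets overlapped, and 1 control library with 413 ISG15 reads stood apart from the other 7, of which the highest had 6.88 CPM. The 0 reads in D10000 replicate 2, the library with the fewest gene counts, allow a level of up to 0.906 CPM (3 counts of the total, counting error only).

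IFIT1 ran in the control from 7.38 through 15.8 to 36.0 CPM (lowest, median and highest library). In D5000 it ran from 5.82 through 19.1 to 50.4 CPM, and in D10000 from 7.77 through 14.0 to 45.3 CPM. IFIT2 ran in the control from 2.82 through 5.13 to 9.75 CPM and in D10000 from 2.79 through 4.23 to 16.7 CPM. In D5000 it ran from 0.113 CPM in replicate 29, where 1 read was counted, through 6.22 to 24.5 CPM in replicate 18. For both genes the ranges of the diets lay over each other, with the highest library of all in D5000 replicate 18.

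MX1 ran in the control from 2.67 through 9.36 to 23.7 CPM, in D5000 from 5.33 through 10.4 to 30.4 CPM and in D10000 from 3.70 through 9.35 to 43.8 CPM. MX2 ran in the control from 8.20 through 15.0 to 48.9 CPM, in D5000 from 7.00 through 10.1 to 42.5 CPM and in D10000 from 3.46 through 16.2 to 59.2 CPM. The medians of MX1 were nearly level between diets, and D10000 replicate 2 was the highest library for both GTPases. RSAD2 ran in the control from 8.34 through 10.8 to 26.0 CPM, in D5000 from 4.26 through 19.9 to 76.0 CPM and in D10000 from 5.48 through 12.7 to 46.5 CPM. Its D5000 range held both the lowest and the highest library of the 25, replicates 25 and 18.

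IFI6 ran in the control from 83.8 through 188.1 to 370.0 CPM. In D5000 it ran from 67.0 through 267.8 to 626.7 CPM, and in D10000 from 105.8 through 250.5 to 653.9 CPM. The highest value belonged to the fat-rich D10000 replicate 27, where the other 6 genes together had 67.4 CPM, and the lowest to D5000 replicate 25. IFI6 made up 66.4% to 90.7% of the summed level of the 7 genes. The sum of the other 6 was highest in D5000 replicate 18 (233.8 CPM), D10000 replicate 2 (199.1 CPM) and D5000 replicate 11 (157.5 CPM), with 24.9%, 28.4% and 43.8% of reads assigned. It was lowest in D10000 replicate 20 (25.9 CPM), with 65.0% of reads assigned. In control replicate 14, with 70.6% of reads assigned, the sum was 107.7 CPM. These sums are per gene counts of the library, without the scaling of library sizes (TMM) that the tests use. That scaling lowers levels in D5000 replicate 18, D10000 replicate 2 and D5000 replicate 11 (factors 1.54, 1.41 and 1.21). It raises them in control replicate 14 (factor 0.717).

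Between pigs of the same diet, the spread of these genes was mostly ordinary. The biological coefficient of variation, the spread beyond counting error, was 0.481 for IFI6 and 0.486 for IFIT1, below that of most tested genes (27.5% and 28.8% of genes had a lower one). RSAD2, MX2, MX1 and IFIT2 had 0.568, 0.569, 0.607 and 0.651, near the median of all tested genes, 0.585. ISG15 had 0.885, higher than 79.9% of genes. Diet accounted for 17.3% of the variance of log2 CPM in ISG15 and for 0.567% to 6.09% in the other 6, with a median over all tested genes of 5.79%. The ISG15 values include control replicate 14 (log2 CPM 6.30, next control 2.99) and D10000 replicate 2, which had 0 reads. Without control replicate 14, the ISG15 log2 fold change in D10000 against control was -0.43 instead of -1.97.

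Whether the lower dose changed these genes was read from D5000 against the control. None of the 7 passed the threshold of an adjusted p of 0.05 (edgeR's quasi-likelihood test, Benjamini-Hochberg adjustment over 10992 tested genes), and neither did any other gene (0% of tested genes called). Before adjustment, 371 genes (3.38% of those tested) had a p under 0.05, none of them among the 7, and DESeq2 called 0 genes after adjustment in each contrast. Log2 fold changes were positive in 5 of the 7 genes and negative in 2, with a median of 0.22 against 0.01 over all tested genes. RSAD2 had the largest positive value, 0.82 ± 0.41 (SE; 95% interval -0.02 to 1.66; unadjusted edgeR p of 0.0557, adjusted p = 0.999). It was 0.20 when the share of assigned reads entered the model, 0.13 without the 5 libraries, and 0.51 without D5000 replicate 11 (unadjusted edgeR p of 0.217). ISG15 had the largest negative value, -1.18 ± 0.68 (unadjusted edgeR p of 0.0907, adjusted p = 0.999), and it turned to 0.36 without control replicate 14. MX1 (0.31 ± 0.44), IFIT2 (0.26 ± 0.50), IFI6 (0.22 ± 0.34), IFIT1 (0.05 ± 0.35) and MX2 (-0.37 ± 0.41) had differences smaller than their SE.

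D10000 against the control gave the same reading for the higher dose. Again 0% of tested genes were called at the adjusted threshold, and 263 (2.39%) had an unadjusted p under 0.05, 1 of them ISG15. ISG15 had a log2 fold change of -1.97 ± 0.67 (SE; 95% interval -3.33 to -0.61) at an unadjusted edgeR p of 0.00567 and an adjusted p of 1.00. Without control replicate 14 the value was -0.43 with an unadjusted edgeR p of 0.460, and DESeq2, which replaced 1 outlying ISG15 count (that of control replicate 14), gave -0.35. The other 6 genes had values between -0.19 ± 0.40 for MX2 and 0.30 ± 0.40 for RSAD2, all smaller than their SE. Of the 7 genes 3 were positive and 4 negative, with a median of -0.02 against 0.07 over all tested genes.

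Between the supplemented diets, 10000 against 5000 IU/kg, 0% of tested genes passed the adjusted threshold and 323 (2.94%) had an unadjusted p under 0.05, none of the 7 genes among them. The value was negative in 6 of 7 genes and positive in MX2 (0.18 ± 0.40), with a median of -0.14 against 0.04 over all tested genes. ISG15 (-0.79 ± 0.66) and RSAD2 (-0.52 ± 0.40) had the largest differences, and the rest stayed within their SE. The ISG15 value was -0.38 without D5000 replicate 5, and the RSAD2 value was -0.21 without D5000 replicate 11 and -0.05 without the 5 libraries.

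A joint test of both doses called 0% of tested genes at the adjusted threshold and 292 (2.66%) at an unadjusted p under 0.05. ISG15 was the 1 member among these, at an unadjusted edgeR p of 0.0163 (adjusted p = 1.00). A trend over dose called 0% and 2.65% (291) of tested genes by the same rules. ISG15 had a trend of -0.98 ± 0.32 per 5000 IU/kg (unadjusted edgeR p of 0.00409, adjusted p = 0.999), which was -0.24 without control replicate 14 (unadjusted p of 0.435). The other 6 trends lay between -0.09 for MX2 and 0.13 for RSAD2.

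**Figure D2:**
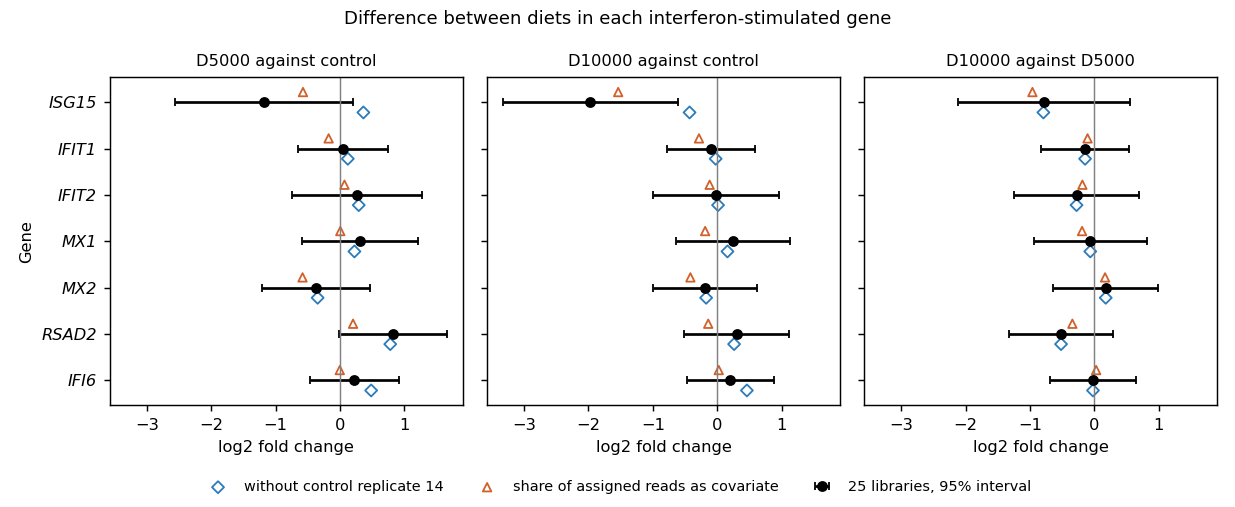
Log2 fold change of each gene in the 3 contrasts. Black points with bars are the fit of 25 libraries with 95% intervals, open diamonds the fit without control replicate 14, and open triangles the fit that also holds the share of assigned reads. The interval of ISG15 in D10000 against control (-3.33 to -0.61) is the 1 that leaves out 0, and its diamond lies at -0.43.

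In control replicate 14, the library with the highest ISG15, the other genes took different places among the controls. IFI6 was at 359.7 CPM there, the second highest of the controls, but RSAD2 was the lowest of the controls (8.34 CPM) and MX1 was at 4.24 CPM, the second lowest. IFIT1 (18.5 CPM), IFIT2 (4.92 CPM) and MX2 (15.3 CPM) lay near the control medians of 15.8, 5.13 and 15.0 CPM. These levels are per gene counts of the library. After the scaling of library sizes by edgeR's TMM method that the tests use, IFI6 there (501.8 scaled CPM) was the highest of the controls, MX1 (5.91) stayed the second lowest and RSAD2 (11.6) was the third lowest. On that scale IFIT1 (25.7) and IFIT2 (6.86) there were each the third highest of the controls, and MX2 was at 21.4. The library had 70.6% of its reads assigned, the highest share of the 25.

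How far the 7 genes rose and fell together between pigs was measured over the 25 libraries by Pearson r of log2 CPM after the diet means were removed. Of 21 pairs 18 had a positive r, and r ran from -0.29 to 0.74 with a median of 0.33. The pair of MX1 and RSAD2 had the highest r, 0.74 (permutation p within diets = 2e-05, adjusted over 21 pairs 0.00042) with a Spearman rho of 0.76 (permutation p = 2e-05, adjusted 0.00042). Its r was 0.82 within the control, 0.67 within D5000 and 0.89 within D10000, and 0.71 without the 2 libraries farthest from the MX1 median. Without the 5 libraries named above it was 0.51, and with the share of assigned reads removed it was 0.37. By Pearson r this was the 1 pair past an adjusted p of 0.05. By rank, 5 pairs passed.

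Over the 25 libraries IFIT1 had an r of 0.54 with RSAD2, 0.52 with MX1, 0.52 with IFI6 and 0.41 with MX2, and its rho with RSAD2, MX1 and IFI6 passed at an adjusted permutation p of 0.0427 each. Without the 5 libraries these 4 values of r were 0.30, 0.26, 0.58 and 0.46, and with the share of assigned reads removed they were 0.29, 0.25, 0.35 and 0.25. ISG15 and IFIT2 made the fifth pair past the threshold by rank (rho = 0.61, adjusted permutation p = 0.0135, r = 0.36, adjusted p = 0.104). ISG15 had an r of -0.29 with MX1, -0.04 with MX2 and -0.22 with RSAD2, none of which passed, and these were -0.10, 0.31 and -0.12 without the 5 libraries. Within D10000, where replicate 2 had 0 ISG15 reads, they were -0.65, -0.43 and -0.49, against 0.43, 0.62 and 0.07 within D5000 and -0.02, 0.32 and -0.11 within the control. With the share of assigned reads also removed, the r of ISG15 with IFI6 was 0.67 (0.38 before, adjusted permutation p = 0.216), with IFIT2 0.44 and with IFIT1 0.39. The r of ISG15 with IFI6 was 0.84 within the control but 0.10 within D5000 and 0.12 within D10000. MX1 with MX2 moved from 0.33 to 0.00 when the share was removed, and the median over the 21 pairs from 0.33 to 0.16.

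**Figure D3:**
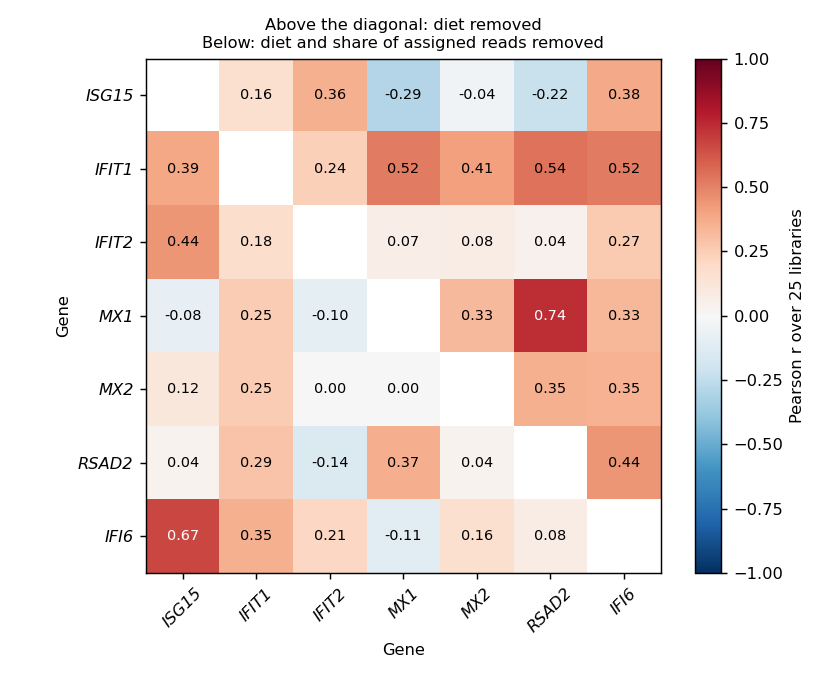
Pearson r between each pair of the 7 genes over 25 libraries, with diet removed (above the diagonal) and with diet and the share of assigned reads removed (below it). MX1 with RSAD2 is the deepest red cell above (0.74), and ISG15 with IFI6 below (0.67).

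The genes differed in how they followed measures of the library, in 84 relations of 7 genes with 12 measures, of which 12 passed an adjusted p of 0.05 by Pearson r and 18 by rank. RSAD2 was higher where fewer gene counts were obtained (r = -0.83, rho = -0.86, permutation p = 1e-05 each, the smallest the permutations can give, adjusted 0.00042 and 0.00028). It was also higher where fewer reads were assigned (r = -0.77, rho = -0.79, adjusted permutation p = 0.000672 and 0.00028). These values held at -0.88 and -0.72 without the 2 libraries farthest from the median of the measure, and at -0.73 and -0.76 without the 5 libraries. MX1 had an r of -0.76 with the share of assigned reads (rho = -0.77, adjusted permutation p = 0.000672 and 0.00147), which was -0.91 within the control, -0.67 within D5000 and -0.78 within D10000. With gene counts MX1 had an r of -0.70 (rho = -0.72, adjusted permutation p = 0.00636 and 0.0035), with r at -0.44 without the 5 libraries. Over all tested genes the median r with the share was 0.12, and 3.13% of genes had a lower r than RSAD2 and 3.73% a lower one than MX1. IFIT1 had an r of -0.57 and a rho of -0.54 with gene counts (permutation p = 0.00456 and 0.006, adjusted 0.0372 and 0.0379), with r at -0.31 without the 5 libraries. IFI6 passed by rank alone, with a rho of -0.57 with the share and -0.54 with gene counts (permutation p = 0.00445 and 0.00663, adjusted 0.0340 and 0.0379). Its r was -0.52 and -0.47 (adjusted permutation p = 0.0711 and 0.0960), and -0.30 and -0.43 without the 5 libraries. ISG15 had an r of 0.32 with the share.

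**Figure D4:**
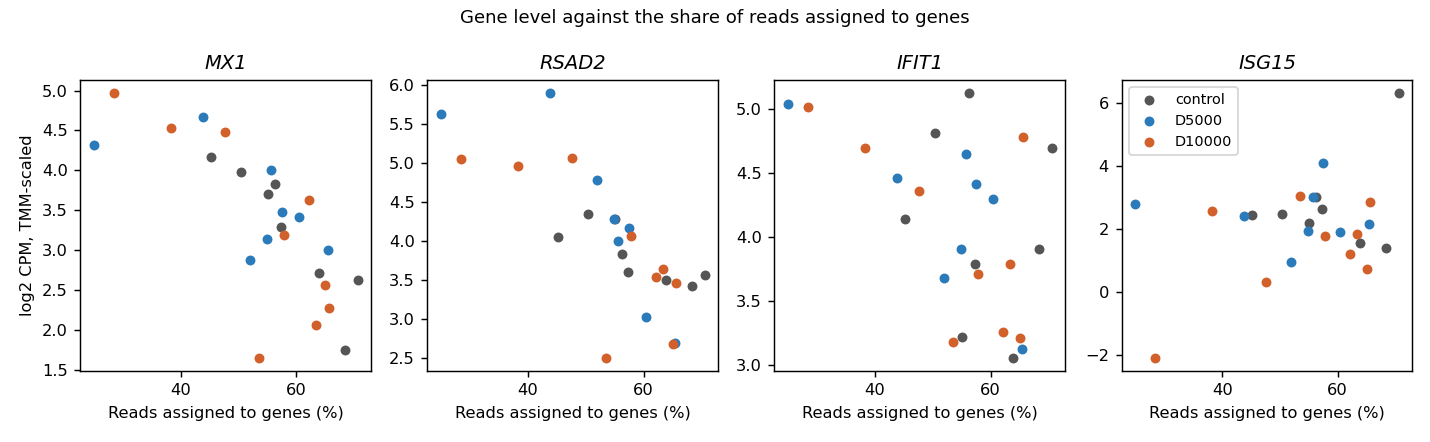
Log2 CPM (TMM-scaled, prior count 2) of MX1, RSAD2, IFIT1 and ISG15 against the percentage of reads assigned to genes, 1 point per library, by diet. MX1 and RSAD2 fall from left to right (r = -0.76 and -0.77), and the lowest ISG15 point, D10000 replicate 2, had 0 reads.

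Marker lists passed the adjusted threshold by Pearson r with 3 of the genes, MX1, RSAD2 and IFI6, and by rank alone with ISG15 and IFIT1. MX1 rose with the liver transcripts, 11 of 13 of which were tested (r = 0.85, rho = 0.84, adjusted permutation p = 0.00042 and 0.00028), with 0.87, 0.70 and 0.91 within control, D5000 and D10000, 0.81 without the 2 libraries with the most extreme levels of that list and 0.78 without the 5 libraries. RSAD2 had an r of 0.73 and a rho of 0.73 with the same list (permutation p = 4e-05 and 9e-05, adjusted 0.000672 and 0.00151), 0.59 without the 5 libraries. The summed level of that list was 3813 to 25751 CPM in the control, 4084 to 35763 CPM in D5000 and 3533 to 40042 CPM in D10000, and its part in the result was not tested. RSAD2 fell with neutrophil markers (4 of 8 tested, r = -0.73, rho = -0.64, permutation p = 0.00053 and 0.00226, adjusted 0.00636 and 0.0223). It fell with endothelial markers (8 of 10 tested, r = -0.62, rho = -0.66, permutation p = 0.00318 and 0.0007, adjusted 0.0297 and 0.0084). It also fell with adipocyte markers (9 of 11 tested, r = -0.58, rho = -0.56, permutation p = 0.0011 and 0.00721, adjusted 0.0115 and 0.0379). Without the 5 libraries these 3 values of r were -0.46, -0.48 and -0.39, and within the control they were -0.0034, -0.31 and 0.44. With skeletal muscle fibre markers RSAD2 passed by rank alone (rho = -0.54, permutation p = 0.00384, adjusted 0.0323), with an r of -0.23 (adjusted permutation p = 0.604) that was -0.61 without the 5 libraries, -0.88 within the control, -0.68 within D5000 and 0.16 within D10000.

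The neutrophil sum ran from 5.83 to 29.6 CPM in the control, 3.93 to 20.8 CPM in D5000 and 2.42 to 113.3 CPM in D10000. The endothelial sum ran from 89.4 to 214.7 CPM in the control, 99.1 to 251.6 CPM in D5000 and 111.9 to 695.1 CPM in D10000, and the adipocyte sum from 253.0 to 498.7, 236.7 to 820.8 and 216.9 to 28387 CPM. Each highest D10000 value was that of replicate 27. MX1 had an r of -0.56 and a rho of -0.61 with endothelial markers (permutation p = 0.00531 and 0.00239, adjusted 0.0372 and 0.0223), with r at -0.28 without the 5. IFI6 fell with muscle fibre markers (r = -0.55, rho = -0.53, permutation p = 0.00502 and 0.00766, adjusted 0.0372 and 0.0379), with r at -0.40 without the 2 libraries of the most extreme fibre marker levels and -0.26 without the 5. The fibre sum was 66609 to 254540 CPM in the control, 77208 to 246590 CPM in D5000 and 12990 to 232610 CPM in D10000. No measured marker of these lists was at 0 in every library, and their parts in the results were not tested. The 4 tested neutrophil markers were scarce, with medians from 0.867 CPM for LTF to 3.98 CPM for S100A12. LTF was at 0 in 8 libraries, S100A8 in 5, S100A12 in 2 and CSF3R in 1, so the level of this list is uncertain in shallow libraries.

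Macrophage and T and NK cell markers gave relations that passed by rank alone. ISG15 had an r of 0.45 and a rho of 0.53 with macrophage and monocyte markers (11 of 12 tested), of which the rank correlation passed (adjusted permutation p = 0.0379) and Pearson r did not (0.12). The r was 0.32 without the 5 libraries. The macrophage sum was 140.4 to 645.0 CPM in the control, 146.2 to 564.7 CPM in D5000 and 152.6 to 695.8 CPM in D10000. The T and NK cell list of 17 symbols had 8 tested identifiers, both identifiers of GZMA among them, so GZMA weighed more than the other markers. IFIT1 and RSAD2 had a rho of 0.52 and 0.56 with this list (adjusted permutation p = 0.0379 and 0.0459), with an r of 0.46 and 0.47 that did not pass. These were 0.38 and 0.34 without the 5 libraries, and within the control RSAD2 had an r of -0.33. The T and NK cell sum was 27.1 to 74.8 CPM in the control, 16.9 to 96.3 CPM in D5000 and 25.2 to 106.9 CPM in D10000. The parts of these cells in the results were not tested. The list of plasmacytoid dendritic cells, the type best known for making interferon, had 2 of 8 markers tested, and no relation with it was computed.

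The rest of the interferon pathway was read from 130 other genes in 7 lists, of which 100 had an identifier in the files and 75 were tested, 41 of these on the list of other interferon-stimulated genes. None of the 75 passed the adjusted threshold in any contrast. At an unadjusted edgeR p under 0.05, 3 were higher and 0 lower in D5000, 3 higher and 0 lower in D10000, and 0 higher and 1 lower in D10000 against D5000, so 3 of 75 stands beside 3.38% and 2.39% of all tested genes and 1 of 75 beside 2.94%. In both contrasts with the control IFI44 was 1 of the 3, and it passed the low-count filter only through libraries of the supplemented diets. The median log2 fold changes of the 75 were 0.17, 0.14 and -0.02, against 0.01, 0.07 and 0.04 over all tested genes.

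None of the 4 type I interferon genes with an identifier had a read. IFNB1, IFNE, IFNK and IFN-DELTA-1 had 0 reads in all 25 libraries, which together held 216415396 gene counts, and this allows a level of up to 0.0139 CPM. IFNG, the type II interferon, had 28 reads, in 3 of 25 libraries, with the highest level (2.03 CPM) in control replicate 23. The other 6 ligand symbols had no identifier in the files, IFNA1 among them.

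The receptors were measured at low to moderate levels. IFNAR1 and IFNAR2, the receptor chains for type I interferon, had medians of 15.9 CPM (5.96 to 114.5) and 19.4 CPM (4.66 to 52.8) over the 25 libraries. IFNAR1 had a log2 fold change of 0.81 ± 0.37 in D10000 against control (unadjusted edgeR p of 0.0340, adjusted p = 1.00), 0.31 when the share of assigned reads entered the model and 0.05 without the 5 libraries. IFNGR2, a receptor chain for type II interferon, had the smallest p of the pathway genes. It ran from 2.14 through a median of 3.06 to 8.75 CPM in the control, from 4.08 through 8.95 to 21.9 CPM in D5000 and from 0.389 through 11.4 to 51.0 CPM in D10000. Only the fat-rich D10000 replicate 27 lay below all controls, while 6 of 9 D10000 and 4 of 8 D5000 libraries lay above the highest control. The log2 fold change of IFNGR2 was 1.75 ± 0.49 in D10000 against control (unadjusted edgeR p of 0.00111, adjusted p = 1.00) and 1.16 ± 0.49 in D5000 against control (unadjusted p of 0.0249, adjusted p = 0.999). Leaving out each library in turn gave 1.47 to 1.93 in D10000. The values were 1.49 in D10000 and 0.95 in D5000 without the 5 libraries.

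The transducers that carry the signal to the nucleus were detected, IRF9 barely so. JAK1 had a median of 134.2 CPM (71.3 to 289.7), STAT2 15.4 CPM (1.83 to 35.9) and TYK2 4.43 CPM (1.73 to 16.4). IRF9, the partner of STAT2, had 9 reads in control replicate 3 and 0 in 24 libraries. Low expression of IRF9 and a poorly annotated 3' end cannot be told apart in these counts. Of 5 tested transducers 3 were positive and 2 negative in each contrast.

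Of the interferon regulatory factors, which drive transcription of interferons and their targets, 7 of 7 were tested. IRF7 had a median of 6.17 CPM (1.92 to 16.2), and 5.24, 12.7 and 6.17 CPM in control, D5000 and D10000. IRF3 ran from 7.40 through 12.8 to 17.0 CPM in the control, from 9.42 through 17.5 to 59.8 CPM in D5000 and from 8.61 through 11.9 to 43.3 CPM in D10000. The groups overlapped, with the highest library D5000 replicate 18. IRF3 had a log2 fold change of 0.83 ± 0.32 in D5000 against control (unadjusted edgeR p of 0.0132, adjusted p = 0.999), 0.52 without the 5 libraries, and of -0.54 ± 0.31 in D10000 against D5000. The list was split 4 positive to 3 negative in both contrasts with the control.

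Sensors of viral RNA and inhibitors of the pathway held no gene past the adjusted threshold, and their directions differed between contrasts. RIGI and IFIH1, RNA sensors that are also induced by interferon, had medians of 21.0 CPM (7.31 to 92.7) and 14.1 CPM (3.69 to 80.1). Of 10 tested sensors and adaptors 8 were positive in D5000 and 5 in D10000, with medians of 0.13 and 0.00 on the log2 scale. Of all tested genes, 51.0% and 57.2% were positive, with medians of 0.01 and 0.07. Of 7 tested inhibitors 4 were positive in D5000 and 5 in D10000. In D10000 against D5000, 4 of the 10 sensors and adaptors and 2 of the 7 inhibitors were positive, beside 54.6% of all tested genes. USP18, which removes ISG15 from proteins and restrains the receptor, had a median of 4.35 CPM (0 to 16.6), and SOCS1 had 22 reads in all, with 21 libraries at 0. PTPN11, a phosphatase listed among the inhibitors, had a log2 fold change of 0.43 ± 0.23 in D10000 against control (unadjusted edgeR p of 0.0675, adjusted p = 1.00).

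Of 75 other interferon-stimulated genes 54 had an identifier and 41 were tested, 27 of them positive in D5000 and 28 in D10000. Over all tested genes 51.0% were positive in D5000 and 57.2% in D10000. IFI44 had 6 reads in 2 of 8 controls, 81 reads in 4 of 8 D5000 libraries and 84 reads in 6 of 9 D10000 libraries. Its fitted log2 fold changes of 3.73 ± 1.45 and 3.71 ± 1.44 (unadjusted edgeR p of 0.0107 and 0.0104, adjusted p = 0.999 and 1.00) depend on the prior count, since 13 of 25 libraries were at 0. IFI44 also passed the low-count filter only through libraries of the supplemented diets, as the highest control had 0.446 CPM. When each library was left out in turn, it stayed in 15 of 25 fits. Its values are therefore a description and no support for a difference between diets. EIF2AK2, the RNA-activated kinase PKR, had a median of 35.3 CPM and a log2 fold change of 0.65 ± 0.34 in D5000 against control (unadjusted edgeR p of 0.0616, adjusted p = 0.999), which was 0.30 without D5000 replicate 18. In D10000 against D5000, the smallest p-values belonged to TRIM34 (-0.92 ± 0.45), SHISA5 (0.59 ± 0.31) and DTX3L (-0.81 ± 0.49), after adjustment 0.999 each by edgeR. Single libraries carried most of the DTX3L and SHISA5 values: DTX3L was at -0.09 without D5000 replicate 18, and SHISA5 at 0.11 without D10000 replicate 27. TRIM34 was reduced to -0.53 without D5000 replicate 18.

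To find which genes resembled the 7 most, each gene was compared with the mean of the 7 standardised profiles over the 25 libraries, with diet removed. These values are a description, since the points share library, depth and composition. Among 10985 other genes, the 10 highest held ABL2 (0.79), a tyrosine kinase, ZNFX1 (0.76), an antiviral RNA helicase, TRIM56 (0.76), a ubiquitin ligase of innate immunity, RNF20 (0.75), a histone ubiquitin ligase, and PKP2 (0.74), a desmosomal protein. Another 4 had no symbol (ENSSSCG00000035189 at 0.81, ENSSSCG00000036227 at 0.77, ENSSSCG00000034802 at 0.76 and ENSSSCG00000012229 at 0.75). These 9 were lower where more reads were assigned, with an r from -0.61 for ABL2 to -0.87 for ENSSSCG00000036227.

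With the share of assigned reads removed as well, ABL2 had an r of 0.64 and was the third of 10985, and without the 5 libraries it had 0.73 and was the ninth. Of the 75 pathway genes, which are 0.683% of the genes compared, 8 were among the 100 highest, 12 with the share removed and 11 without the 5 libraries. Their median r was 0.31 against -0.09 over all other tested genes, 0.13 against 0.00 with the share removed and 0.23 against -0.04 without the 5 libraries. The list of other interferon-stimulated genes had a median r of 0.44 over 41 genes, the regulatory factors 0.31 over 7 and the inhibitors 0.00 over 7. PIAS1, on the list of inhibitors, had the lowest r of the 75, -0.54.

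**Figure D5:**
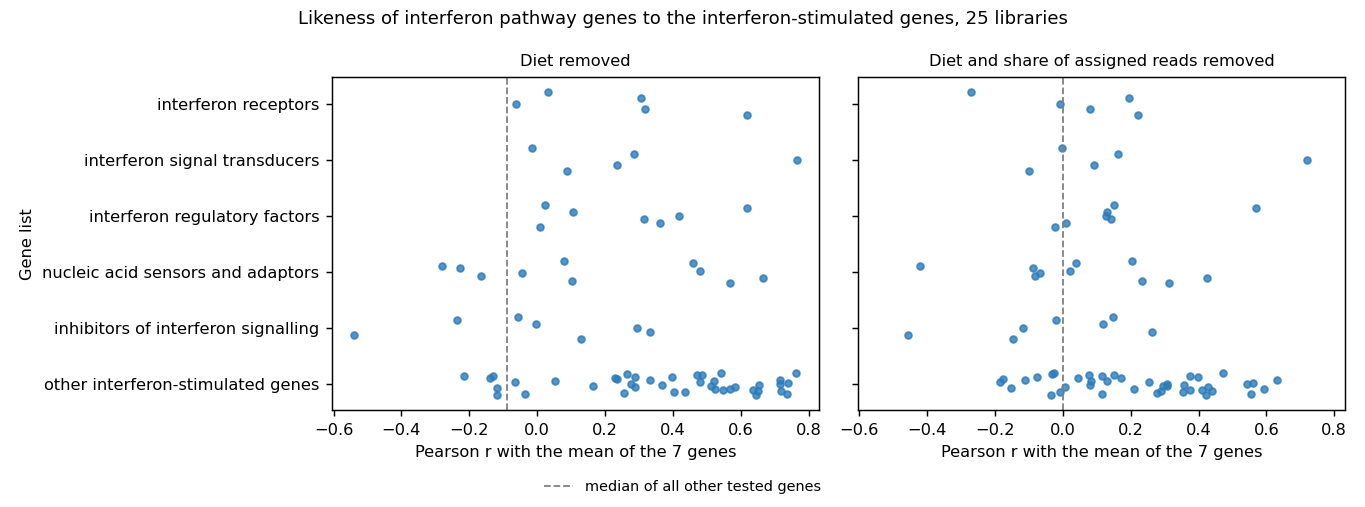
Pearson r of each tested pathway gene with the mean of the 7 genes over 25 libraries, by list, with diet removed (left) and with diet and the share of assigned reads removed (right). The dashed line is the median over all other tested genes (-0.09 and 0.00). The list of other interferon-stimulated genes lies mostly to the right of it (median 0.44 at left).

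The same measure, taken for each of the 7 genes against the mean of the other 6, showed how closely each followed the rest. IFIT1 had an r of 0.68, above 99.6% of the genes compared, IFI6 0.65 (98.4%), RSAD2 0.52 (96.6%) and MX1 0.46. MX2 had 0.39 (86.7%), IFIT2 0.27 (78.8%) and ISG15 0.09 (65.8%). With the share of assigned reads removed, IFIT1 (0.56) was above 99.9% of genes, ISG15 (0.51) above 99.7% and IFI6 (0.43) above 98.9%. RSAD2 (0.19) and MX1 (0.10) then stood above 86.4% and 74.8%. Without the 5 libraries, IFI6 had an r of 0.67 (above 99.8% of genes), IFIT1 0.63 (99.5%), MX2 0.58 (99.1%), RSAD2 0.41 (95.4%) and MX1 0.39. ISG15 then had 0.36 (86.5%) and IFIT2 0.20 (76.3%), so the order of the 7 genes differed between the 3 settings.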

How the data were processed

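Per the labels' protocols, muscle RNA was made into libraries with the Lexogen QuantSeq 3' kit (FWD). The deposited values are raw counts of reads per Ensembl pig gene, 1 file per pig, with no normalization by the authors seen in them. FastQC is named in the submitters' processing notes. The sources used here do not give the aligner, the counter, the genome build or the annotation. Rows that name no gene stayed out of library sizes: reads outside genes (16.3% to 38.1% of a file), not unique (12.5% to 38.7%) and ambiguous (0.299% to 0.608%), shares that leave out any unaligned reads. The files held 25880 identifiers, and 1 was absent from 1 file and left out. An Ensembl name table gave a symbol to 14856.

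Counts were filtered with filterByExpr (minimum count 10, total 15), which kept 10992 genes and all 7 of those studied, scaled by TMM and fitted with edgeR 4.0.16 (glmQLFit, robust, prior count 0.125) with R 4.3.3, on all 25 libraries with diet alone in the model. The threshold was a Benjamini-Hochberg adjusted p of 0.05 over all tested genes. CPM is per 1000000 gene counts, without TMM. Relations used log2 CPM (TMM, prior count 2), Pearson r on values centred within diets, Spearman rho uncentred, and 100000 permutations within diets with scipy 1.17.1. DESeq2 1.42.0 was an alternative. The fit and the relations were tested on simulated data. The 7 genes, the pathway and marker lists and the tests were chosen with earlier results of these data known. The named genes are the 7, 12 signalling genes, the 4 pathway genes with the smallest p per contrast where none passed the threshold, and the 10 genes most like the 7, of which 1 gene is not reported here; any other was chosen after its values were seen. The lists for B and plasma cells (1 of 9 tested), fibroblasts (8 of 9), blood cells (4 of 7) and lung (4 of 7) were also measured. No sequences or coordinates were used.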

Additional observations from a re-analysis of the deposited data

Results flagged for a closer look

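In 3 of 21 groups of libraries (7 genes by 3 diets) the highest or lowest library was set off from the nearest other by more than Dixon's 95% limit, and chance gives about 1 in 20. In the control, ISG15 in replicate 14 had a log2 CPM of 6.30 and the next library 2.99, a gap of 0.674 of the group's range. In D5000, IFIT2 in replicate 29, with 1 read, had -1.57 and the next library 1.99, a gap of 0.637 of the range. In D5000, IFI6 in replicate 25 had 6.62 and the next library 7.79, a gap of 0.572 of the range.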

How the results depend on the processing

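No gene passed the adjusted threshold in any contrast, joint test or trend under any of the alternatives run: RLE scaling, no low-count filter, a minimum count of 30, DESeq2, a fit of 2 diets, the share of assigned reads in the model, each library left out in turn, and, chosen after seeing the data, the 5 libraries left out. No paired analysis was possible because animal numbers are not shared between diets and litters are not in the labels. ISG15 had 0 reads in the library with the fewest gene counts, where depth allows a level of up to 0.906 CPM. Log2 fold changes that changed sign were mostly near 0, and apart from the replaced ISG15 count and the left-out libraries the cause was not tested. With RLE scaling, IFIT2 was at 0.034 in D10000 against control and 0.011 in the trend, and IFI6 at 0.030 in D10000 against D5000. With a minimum count of 30, IFIT2 was at 0.011 in D10000 against control. With DESeq2, ISG15 was at 0.38 in D5000 against control, IFIT2 at 0.035 in D10000 against control and IFI6 at 0.030 in D10000 against D5000. In a fit of 2 diets IFI6 was at 0.00947 in D10000 against D5000. With the share in the model, IFIT1 was at -0.18 and IFI6 at -0.00368 in D5000 against control, MX1 at -0.19 and RSAD2 at -0.14 in D10000 against control, and IFI6 at 0.027 in D10000 against D5000. Without the 5 libraries, IFIT1 was at -0.16 and MX1 at -0.069 in D5000 against control, MX1 at -0.15 and IFI6 at -0.26 in D10000 against control, and MX1 at -0.074 and IFI6 at -0.13 in the trend. Leaving out 1 library at a time gave, in D5000 against control, ISG15 -1.59 to 0.36, IFIT1 -0.10 to 0.23 and IFIT2 -0.0092 to 0.45. In D10000 against control it gave IFIT1 -0.23 to 0.082, IFIT2 -0.18 to 0.13, MX1 -0.025 to 0.41 and MX2 -0.45 to 0.045. In D10000 against D5000 it gave IFIT1 -0.29 to 0.024, IFIT2 -0.47 to 0.017, MX1 -0.34 to 0.14, MX2 -0.10 to 0.38 and IFI6 -0.19 to 0.11. In the trend it gave IFIT1 -0.12 to 0.033, IFIT2 -0.091 to 0.049, MX1 -0.013 to 0.20 and MX2 -0.22 to 0.029. The median r over pairs ran from 0.26 to 0.36 when 1 library was left out, and was 0.32 with a prior count of 0.5, 0.34 with RLE scaling and 0.31 without the 5 libraries.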

Other observations

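Some other interferon-stimulated genes, picked from the high end of their list after their values were seen, followed the 7 genes between pigs. The 41 tested genes of that list ran from an r of -0.22 to 0.76 with the mean of the 7, with a median of 0.44. PARP14, CXCL10 (a chemokine that draws T cells), OAS2 (which makes the oligoadenylates that activate RNase L) and PSMB9 (a subunit of the immunoproteasome) had an r with the mean of the 7 of 0.74, 0.74, 0.71 and 0.71 over the 25 libraries. With the share of assigned reads removed these were 0.56, 0.55, 0.54 and 0.63. IRF7, from the list of regulatory factors, had 0.62, and 0.57 with the share removed.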
